A study of Mus musculus with 10 samples.

Results

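Simple keratin and epithelial junction genes, 10 in all, were followed across 10 libraries of sorted tumour cells from a mouse model of malignant peripheral nerve sheath tumour (MPNST), a soft tissue cancer of nerve. They are the simple keratins Krt7, Krt8, Krt18 and Krt19, the surface adhesion gene Epcam, the desmosome genes Dsp, Jup and Pkp2, and the tight junction genes Cldn1 and Tjp1. The 10 genes were named as a list, not picked by a threshold, out of 46517 genes in the count table. All 10 were found there, and 9 passed the filter on low counts that left 15282 genes for testing.

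RNA was sequenced from 5 libraries of GFP+ cells, which expressed a transgene that the labels call CGD, and from 5 libraries of GFP- cells, which did not. Each of the 5 allograft models A to E gave 1 library of each population, and the stated comparison was paired by model. In all groups the cells came from freshly dissociated allografts, and wild type cells and dead cells had been gated out in the sorter. The sources used here do not give the genotype of the tumours, the promoter of the transgene, the host strain, the age of the animals or whether a model was 1 animal, so p-values of GFP+ against GFP- cells measure the spread between these 5 pairs.

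Keratins 8 and 18 are the filament proteins of simple epithelia. Krt8 encodes a type II keratin and Krt18 its type I partner, and the proteins assemble as pairs, so that filaments need both kinds. Desmosomes tie such filaments to the cell border through desmoplakin (Dsp), plakoglobin (Jup) and plakophilins (Pkp2), and tight junctions seal neighbouring cells through claudins (Cldn1) held by scaffolds such as ZO-1 (Tjp1). Mesenchymal cells are known chiefly for vimentin filaments, and perineurial cells of nerve carry claudin-1 and ZO-1.

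Krt8 and Krt18 are neighbours on chromosome 15. In the mm10 assembly Krt8 lies at chr15:101996698-102004482 on the minus strand and Krt18 at chr15:102028180-102032027 on the plus strand, with 23697 bases between them. The upstream windows of both are shown with that of Epcam, because all of these hold the E-box CAGGTG, the motif known for the repressors of the Snail and ZEB families. Each sequence is the 250 bases before the gene's start in RefSeq on GRCm38.p6, written 5′ to 3′ along the gene's own strand, with the E-box in capitals, which reads CACCTG where it lies on the other strand. The windows are chr15:102004343-102004592 (minus strand) for Krt8, chr15:102027966-102028215 (plus strand) for Krt18 and chr17:87635729-87635978 (plus strand) for Epcam.
Krt8: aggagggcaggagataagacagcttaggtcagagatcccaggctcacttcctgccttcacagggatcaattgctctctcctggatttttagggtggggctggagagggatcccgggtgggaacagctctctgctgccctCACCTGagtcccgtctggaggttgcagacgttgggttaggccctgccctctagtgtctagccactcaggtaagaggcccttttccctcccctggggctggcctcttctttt
Krt18: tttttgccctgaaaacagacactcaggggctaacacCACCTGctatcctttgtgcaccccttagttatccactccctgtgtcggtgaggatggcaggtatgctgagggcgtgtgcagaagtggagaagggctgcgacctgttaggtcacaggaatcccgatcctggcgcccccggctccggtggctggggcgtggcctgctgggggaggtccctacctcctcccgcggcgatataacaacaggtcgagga
Epcam: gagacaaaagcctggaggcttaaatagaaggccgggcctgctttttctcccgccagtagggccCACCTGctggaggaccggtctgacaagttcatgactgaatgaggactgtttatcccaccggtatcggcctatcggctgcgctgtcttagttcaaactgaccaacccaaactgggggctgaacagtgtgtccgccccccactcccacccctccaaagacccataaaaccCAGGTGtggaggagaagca
RefSeq's starts differ from those of GENCODE given above: 140 bases of the Krt8 window and 36 of the Krt18 window lie inside the gene as GENCODE draws it. Counted from RefSeq's start, the E-box stood 111 bases before the start in Krt8 and 214 bases before it in Krt18, and the 2 copies in Epcam stood 187 and 19 bases before the start. The Krt8 E-box thus falls within the 140 bases that GENCODE places inside the gene. RefSeq windows were at hand for 8 of the 10 members: 4 held the motif on either strand (Krt7, Krt8, Krt18 and Epcam) and 4 did not (Dsp, Jup, Cldn1 and Tjp1). The Krt7 and Tjp1 windows, all 250 bases of each, lie inside the gene as GENCODE draws it. The motif occurs in 17.2% of 32851 windows of the same length. These are matches of letters, and binding was not measured.

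Sequencing depth was 15978673 to 22082207 reads in genes per library, so that 3 reads, the limit a count of 0 allows, equal 0.136 to 0.188 CPM (the reads of a gene scaled to a fixed total of reads in genes), for counting error only. The model D GFP+ library stood apart, since it held Xist, the RNA of the inactive X chromosome, at 103 CPM together with the Y-linked Ddx3y at 42.2 CPM. Its GFP- partner had 2.82 CPM of Xist and 64.1 CPM of Ddx3y. The 6 libraries of models B, C and E had at least 523 CPM of Xist and at most 1.35 CPM of Ddx3y, and the 2 libraries of model A had at most 0.111 CPM of Xist with 41.7 and 60.7 CPM of Ddx3y. Members whose sign or call changed without model D are therefore given without it as well.

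Of the tested members, Krt8 had the widest range between tumour models, followed by Dsp. The range of Krt18 was about that of Pkp2. Krt8 had 31.2, 9.69, 188, 2.19 and 158 CPM in the GFP+ libraries of models A to E, against 124, 0.226, 229, 1.56 and 105 CPM in the GFP- libraries. Models A, C and E were high in both populations and models B and D low in both, so the populations overlapped over nearly their whole range. The lowest value, in B GFP- cells, rests on 5 reads, against 182 reads in B GFP+ cells. GFP+ cells averaged 77.8 ± 88.1 CPM, against 91.9 ± 95.7 CPM for GFP- cells (SD, n = 5 each).

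Within pairs the direction of Krt8 was mixed. The log2 difference (GFP+ minus GFP-, from log2 CPM with 2 reads added) was -2.01, 4.82, -0.31, 0.41 and 0.60 for models A to E. Krt8 was thus lower in GFP+ cells of A and C and higher in those of B, D and E, with opposite large differences in A and B. The fitted log2 difference over the 5 pairs was 0.21 with a standard error (SE) of 0.72, and the adjusted p was 0.965 (edgeR's quasi-likelihood test with the model as a block and Benjamini-Hochberg adjustment). Without pair B the fitted difference was -0.40, and without the model term it was -0.25. In sorted bulk RNA, fewer cells that express a gene and less RNA per cell cannot be told apart.

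Krt18, the type I partner, was present in every library. It had 66.9, 77.2, 38.3, 16.9 and 58.7 CPM in GFP+ cells of models A to E, against 93.8, 3.53, 28.6, 10.6 and 22.7 CPM in GFP- cells. GFP+ cells had the higher level in models B, C, D and E and the lower one in A, and the populations overlapped. The pair log2 differences were -0.52, 4.34, 0.40, 0.61 and 1.37 in A to E. The fitted log2 difference was 1.08 (SE 0.62, adjusted p = 0.647, edgeR's quasi-likelihood test with Benjamini-Hochberg adjustment), and 0.47 without pair B. In model B, Krt8 was 42.8-fold and Krt18 21.9-fold higher in GFP+ than in GFP- cells, a difference of 1 pair with no replicate of its own.

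Krt7 and Krt19, keratins of ducts and other simple epithelia, were barely present. Krt7, a type II keratin, had 0, 20, 0, 20 and 5 reads in GFP+ cells of models A to E, against 1, 1, 5, 6 and 1 reads in GFP- cells. The highest Krt7 counts were therefore in the GFP+ libraries of B and D. The fitted log2 difference of 1.29 had an SE of 0.96 (adjusted p = 0.736, edgeR's quasi-likelihood test). It was 2.12 without model C and 0.75 with DESeq2, and without B or D Krt7 no longer passed the filter. Krt19, a type I keratin, had 1 read in all 10 libraries, in D GFP- cells, and was not tested. Opposite-strand genes overlap Krt7, Krt8, Dsp and Tjp1 in the annotation, and the counts used were those of 1 strand setting; Tjp1 also overlaps minor entries on its own strand.

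**Figure D1:**
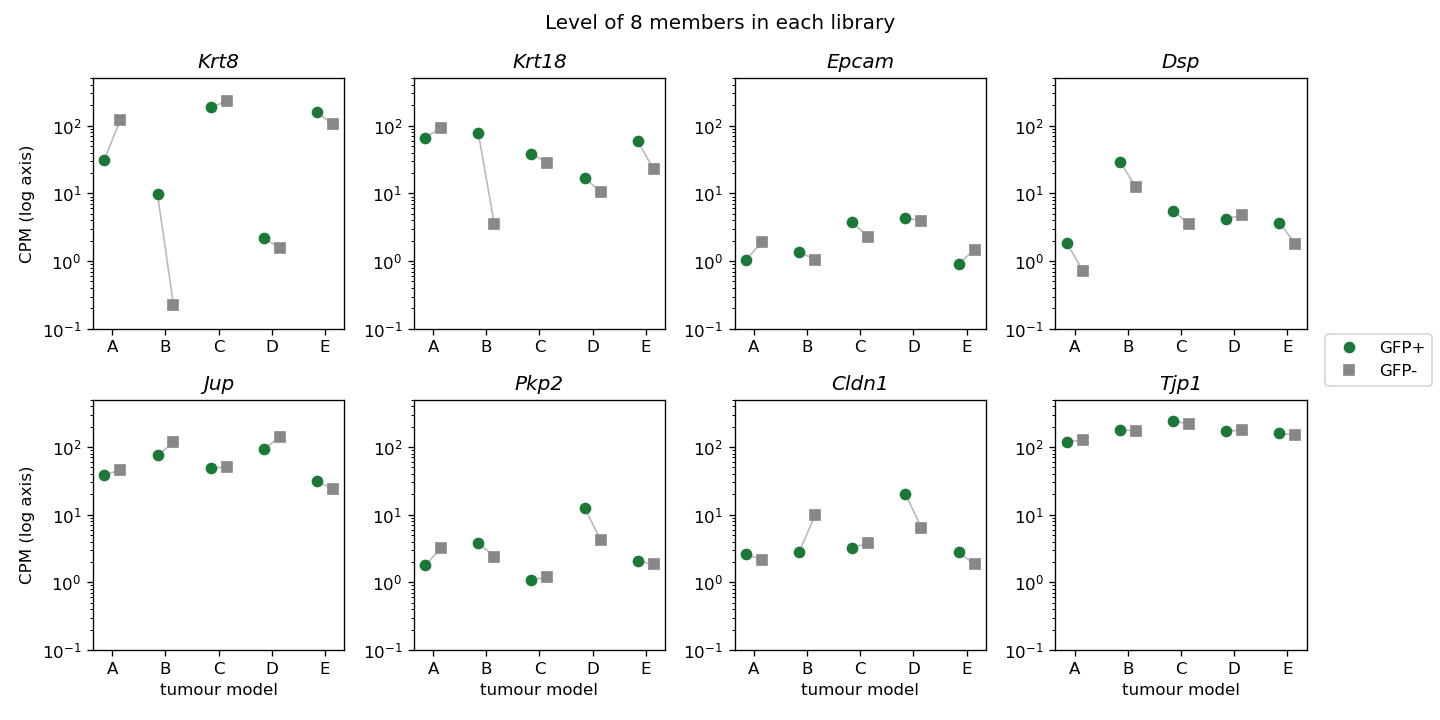
Level of 8 members in CPM (log axis) in each library, by tumour model A to E. Green circles are GFP+ and grey squares GFP- libraries, joined by pair. Krt8 runs over 3 decades between single libraries, from 0.226 CPM (5 reads) in B GFP- to 229 CPM in C GFP-. Tjp1 stays between 120 and 245 CPM. Krt7 and Krt19, with few reads, are left out.

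Epcam, a cell adhesion glycoprotein of epithelial surfaces, was low throughout. It had 1.06, 1.38, 3.75, 4.39 and 0.917 CPM in GFP+ cells of models A to E, against 1.90, 1.04, 2.26, 3.88 and 1.46 CPM in GFP- cells. Models C and D were the highest in both populations, and GFP+ cells were higher in 3 pairs and lower in 2. The fitted log2 difference was -0.04 (SE 0.29, adjusted p = 0.985, edgeR's quasi-likelihood test).

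Among the desmosome genes, Dsp came closest to a difference between the populations. Dsp, which encodes the plaque protein that binds keratin filaments, had 1.83, 29.4, 5.54, 4.22 and 3.72 CPM in GFP+ cells of models A to E, against 0.720, 12.3, 3.52, 4.76 and 1.79 CPM in GFP- cells. GFP+ cells were higher in A, B, C and E and slightly lower in D, and model B was the highest in both populations. The pair log2 differences were 1.20, 1.18, 0.61, -0.22 and 1.02. The fitted log2 difference was 0.77 (SE 0.24), with an unadjusted p of 0.0145 and an adjusted p of 0.435 from edgeR's quasi-likelihood test fitted across all genes. Over the alternatives run the adjusted p of Dsp went no lower than 0.237, so the difference did not pass the threshold of 0.05.

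Jup, whose product plakoglobin sits in desmosomes and in adherens junctions, was far more abundant. It had 38.5, 75.4, 49.0, 91.9 and 31.1 CPM in GFP+ cells of models A to E, against 45.6, 117, 50.4, 141 and 23.8 CPM in GFP- cells. The level was highest in D and B in both populations, and GFP+ cells had the lower level in 4 of 5 pairs, all but E. The fitted log2 difference was -0.27 (SE 0.16, adjusted p = 0.658, edgeR's quasi-likelihood test).

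Pkp2, a plakophilin of desmosomes that is also known from the heart, had 1.78, 3.83, 1.09, 12.6 and 2.07 CPM in GFP+ cells of models A to E, against 3.24, 2.4, 1.21, 4.26 and 1.84 CPM in GFP- cells. Only the D GFP+ library exceeded 5 CPM. The fitted log2 difference was 0.29 (SE 0.35, adjusted p = 0.852, edgeR's quasi-likelihood test), and -0.06 without pair D.

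Of the tight junction genes, Cldn1 differed within pairs in opposite directions. Cldn1, a strand-forming claudin, had 2.61, 2.82, 3.26, 20.3 and 2.8 CPM in GFP+ cells of models A to E, against 2.16, 9.87, 3.80, 6.38 and 1.84 CPM in GFP- cells. In B the GFP- library was the high one and in D the GFP+ library, with pair log2 differences of -1.84 and 1.60. The fitted log2 difference was 0.09 (SE 0.47, adjusted p = 0.980, edgeR's quasi-likelihood test), and -0.34 without pair D. The D GFP+ library that carried the highest Pkp2 and Cldn1 also had the highest level of Sox10, a transcription factor of the Schwann lineage, at 112 CPM against 3.69 CPM in D GFP- cells; the part of its mixed Xist and Ddx3y signal in these values was not tested.

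Tjp1 was the steadiest member. It had 120, 179, 245, 170 and 159 CPM in GFP+ cells of models A to E, against 126, 174, 216, 178 and 151 CPM in GFP- cells. No pair differed by more than 0.16 on the log2 scale. The fitted log2 difference was 0.00084 with an SE of 0.08 (adjusted p = 0.999, edgeR's quasi-likelihood test).

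**Figure D2:**
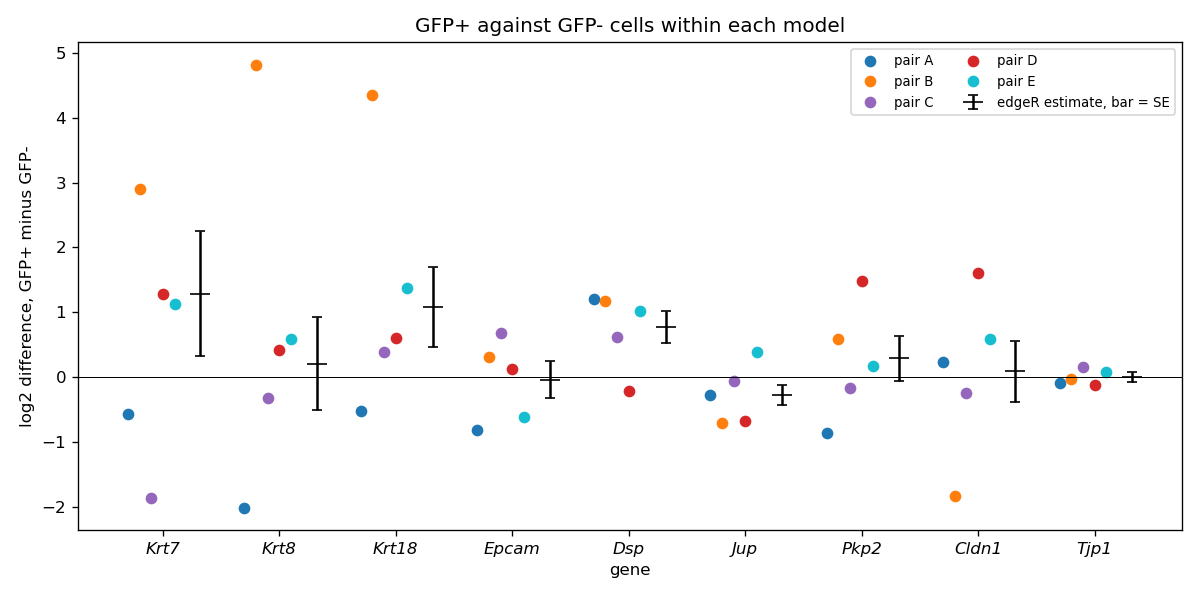
Log2 difference, GFP+ minus GFP-, of the 9 tested members (x axis) in each pair (coloured points), with edgeR's estimate and its SE in black beside them. Pair B stands highest for Krt8 (4.82) and Krt18 (4.34), Cldn1 has pairs on both sides of 0, and the Tjp1 points lie close to 0.

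Read against all genes, none of the 9 tested members was called between GFP+ and GFP- cells. edgeR's quasi-likelihood test called 0 of 15282 genes (0%) at an adjusted p under 0.05. Without adjustment, 1396 genes (9.13%) had a p under 0.05, among them 1 of 9 members, Dsp. DESeq2 called 197 genes (1.29%) and 0 members. GFP+ and GFP- libraries did not overlap in CPM for 0.183% of the genes and for 0 members. The direction was the same in all 5 pairs for 9.53% of the genes and for 0 members. The fitted difference was above 0 for 7 members and below 0 for 2, with a median of 0.21, against 7544 genes above and 7738 below 0 and a median of -0.0026 over all genes tested. Of the 7 above 0, Tjp1 (0.00084, SE 0.08), Cldn1 (0.09, SE 0.47) and Krt8 (0.21, SE 0.72) lay within their SE of 0. Epcam, 1 of the 2 below 0, did so too (-0.04, SE 0.29). The sign of each of these changed under some of the alternatives.

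Single pairs did hold differences beyond 2-fold. In pair B 5 of 9 members were more than 2-fold apart (Krt7, Krt8, Krt18 and Dsp higher and Cldn1 lower in GFP+ cells), where 13.2% of all genes were. In pair A it was 2 members, Krt8 lower and Dsp higher in GFP+ cells, where 8.43% of all genes were. Pair C had 1, Krt7 with 0 reads in GFP+ and 5 reads in GFP- cells, where 5.63% of all genes were. Pair D had 3, Krt7, Pkp2 and Cldn1, all higher in GFP+ cells, where 10.2% of all genes were. Pair E had 3, Krt7, Krt18 and Dsp, all higher in GFP+ cells, where 7.85% of all genes were. These counts have no test, and those of Krt7 rest on at most 20 reads.

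Between the 5 tumour models, by contrast, 6 members differed. A test of any difference among the 5 models, with both libraries of a model as its values, called these 6 of 9 members at an adjusted p under 0.05, where 53.8% of all genes were called, so the members' share was near that of all genes. The 2 libraries of a model are its 2 sorted populations, so these p-values set the models against the spread within pairs, not between animals of a model. The adjusted p (edgeR's quasi-likelihood test) was 0.00141 for Dsp, 0.00315 for Jup, 0.00620 for Tjp1, 0.00961 for Krt8, 0.0216 for Pkp2 and 0.0264 for Epcam. Cldn1 lay at 0.05003, just above the threshold, Krt18 at 0.183 and Krt7 at 0.233. Leaving out model B gave Krt18 an adjusted p of 0.00913 and 8 called members. Leaving out C or D gave 4 called members in each case: Pkp2 (0.0809) and Tjp1 (0.0594) were no longer called without C, nor Pkp2 (0.122) and Epcam (0.115) without D.

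The order of models was not shared by the members. By the geometric mean of the 2 libraries Krt8 ran C, E, A, D, B, over 6.87 on the log2 scale, and the libraries of neighbours E and A overlapped, as did those of D and B. Krt18 ran A, E, C, B, D over 2.55, and below A all neighbours overlapped. Dsp ran B, D, C, E, A over 3.92, with B alone clear of its neighbour. Jup ran D, B, C, A, E over 2.01, and only D and B overlapped. Cldn1 took the same order as Jup over 2.22, with B overlapping both D and C, and A overlapping E. Pkp2 ran D, B, A, E, C over 2.55, with overlaps of A with B and with E. Epcam ran D, C, A, E, B over 1.70, with overlaps of E with A and with B. Tjp1 ran C, B, D, E, A over 0.92, and only B and D overlapped.

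As a description over the 10 libraries of 5 pairs, which share their model within a pair, log2 CPM of Krt8 and Krt18 had a Pearson r of 0.73. Krt8 and Jup had r = -0.85, Krt8 and Cldn1 -0.76, and Jup and Cldn1 0.75. Krt8 was high in the models (A, C, E) where Jup was low, and the reverse held in B and D. The genes most like Krt8 over the 10 libraries were Il2rg (r = 0.96), Ftsj3 (0.96) and Dap (0.96). Those most like Krt18 were Pkp3 (0.95), itself a desmosomal plakophilin, Gtpbp1 (0.95) and Birc5 (0.91). With the desmosome members, by contrast, Krt18 had a negative r: -0.33 with Dsp, -0.64 with Jup and -0.20 with Pkp2. Dsp was nearest to Gjb5 (0.96), a connexin gene, Pafah1b1 (0.95) and Cdkn2d (0.95), and Cldn1 to Igf2 (0.97), Atp6v1f (0.93) and Tagap1 (0.89). For Jup they included Hcrtr2 (0.98) and Pappa2 (0.96), for Tjp1 Hist3h2a (0.98), Sar1b (0.98) and Pikfyve (0.97), and for Pkp2 Enpp4 (0.95), Lrch2 (0.94) and Jph2 (0.94). Epcam was nearest to Csn3 (0.94), Ube2h (0.91) and Rgs9 (0.91), and Krt7 to Rasgef1c (0.90), Hepacam (0.90) and Ifi202b (0.88).

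Per kilobase of exon, Krt8 and Krt18 led the members on average. The length was that of all annotated exons of a gene merged, so comparisons between genes are approximate. The mean level over the 10 libraries was 43.3 CPM per kilobase for Krt8, 29.0 for Krt18, 22.0 for Tjp1 and 10.3 for Jup. Cldn1 (1.15), Epcam (1.00), Dsp (0.703) and Pkp2 (0.640) followed on the same scale, and Krt7 (0.0455) and Krt19 (0.0034) were lowest. This order of means did not hold in every library: Tjp1 exceeded Krt8 per kilobase in the 4 libraries of B and D, and Krt18 in 6 of 10 libraries. Vimentin, the filament of mesenchymal cells, exceeded Krt8 and Krt18 together on that scale in every library, from 6.98-fold in C GFP- to 250-fold in B GFP- cells. These folds depend on the lengths used: without them, C GFP- cells had 4532 CPM of vimentin against 258 CPM of Krt8 and Krt18 together.

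The balance of the partners differed between models. The ratio of Krt8 to Krt18 per kilobase was 0.342, 0.0921, 3.60, 0.0953 and 1.97 in GFP+ cells of models A to E, against 0.966, 0.0470, 5.89, 0.108 and 3.40 in GFP- cells. Krt8 exceeded Krt18 in both populations of C and E, and Krt18 exceeded Krt8 in both of B and D and in A GFP+ cells. In A GFP- cells the 2 were nearly equal per kilobase. There the order depended on the lengths used, since Krt8 had 124 CPM against 93.8 CPM of Krt18. The ratio was lower in GFP+ cells in A, C, D and E and higher in B. In B and D Krt18 exceeded Krt8 by 9.27-fold (D GFP-) to 21.3-fold (B GFP-).

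Krt8 and Krt18 made up most keratin RNA in 9 of the 10 libraries. Summed over 53 coding keratin genes per kilobase, their share was 83.1%, 88.1%, 94.6%, 73.7% and 95.7% in GFP+ cells of models A to E, against 96.5%, 8.50%, 93.1%, 57.9% and 96.2% in GFP- cells. B GFP- cells were the exception, where Krt20, a keratin of intestinal and urothelial surface cells, led with 44.6 CPM, against 6.34 CPM in B GFP+ cells. Of the 53 genes 34 never had more than 3 reads in a library, 12 were tested and 0 were called between GFP+ and GFP- cells. Krt10, a keratin of the upper epidermis, kept to 1.82 to 4.26 CPM in all libraries. Krt6a, a stress keratin of skin, had 23.1 CPM in A GFP+ and 2.98 CPM in A GFP- cells; it has close paralogs, and reads with several positions were not counted, so its level is uncertain.

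**Figure D3:**
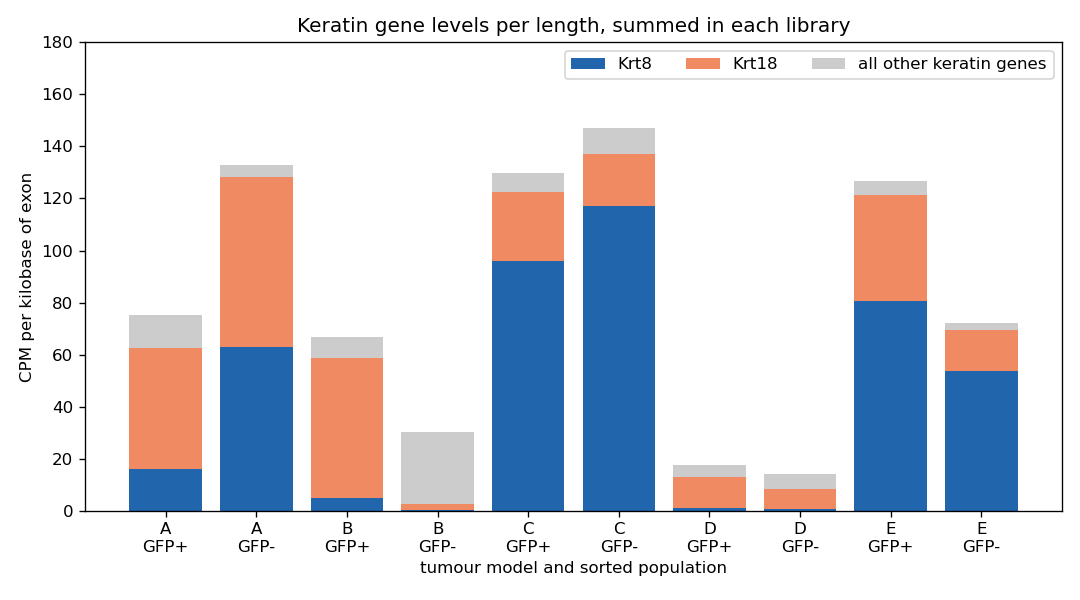
Levels of Krt8, Krt18 and all other coding keratin genes, in CPM per kilobase of exon, stacked for each library (x axis: tumour model and population). Krt8 is the larger part in C and E, Krt18 in A GFP+, B GFP+ and D, and other keratins only in B GFP-. In A GFP- Krt8 and Krt18 are nearly equal.

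The wider keratin and junction genes showed no call between the populations either. edgeR's quasi-likelihood test called 0 genes of any list below, as it called 0% of all genes. Among the other simple and stress keratins 4 of 7 were tested, with 2 higher and 2 lower in GFP+ cells and a median log2 difference of 0.23; Krt20 had -1.05 (SE 0.76), Krt6a 1.23 (SE 0.56) and Krt80 0.47 (SE 0.50). Of 8 keratins of stratified epithelium 2 were tested, Krt10 and Krt14, and Krt5 had 2 reads in all libraries. All 8 tested genes of 14 other desmosome and plakin genes were above 0, with a median of 0.39. Among them Ppl was barely so, at 6.1e-05 (SE 0.35), and it was lower in GFP+ cells of 4 of 5 pairs. An unadjusted p under 0.05 was reached by 2 of the 8, where 9.13% of all genes had one. These were Dst, a plakin, at 0.29 (SE 0.08), higher in 5 of 5 pairs, and Dsc2, a desmosomal cadherin, at 0.81 (SE 0.34) from at most 2.56 CPM. The other desmosomal cadherins were nearly absent, with 15 reads of Dsg2 and 1 read of Dsg3 in all libraries, while the plakin Ppl had 8.84 to 121.5 CPM and Pkp4, a relative of the plakophilins, 53.8 to 98.4 CPM.

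Of 31 other tight junction genes 21 were tested, with 13 above and 8 below 0 and a median of 0.17. An unadjusted p under 0.05 was seen for Jam3 (0.28, SE 0.10), Magi3 (0.31, SE 0.13) and the claudin Cldn15 (-1.37, SE 0.54, at most 2.88 CPM). The polarity scaffold gene Pard3 had 21.3 to 113 CPM and the claudin Cldn12 52.5 to 115 CPM. Of 13 core genes of adherens junctions 12 were tested, with 10 above and 2 below 0 and a median of 0.10. E-cadherin (Cdh1) had at most 2.77 CPM, in model C, and N-cadherin (Cdh2) 85.0 to 381 CPM, with beta-catenin (Ctnnb1) at 499 to 742 CPM.

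Most regulators known to promote epithelial genes were low or absent, while the repressors listed were abundant in both populations. Of 18 epithelial transcription and splicing regulators 9 never had more than 3 reads in a library and 7 were tested, with 4 above and 3 below 0 and a median of 0.07. Ehf was at -1.17 (SE 0.39) and Trp63 at -1.29 (SE 0.48), both with an unadjusted p under 0.05 and at most 4.07 and 1.75 CPM, while Klf5 had 34.1 to 94.3 CPM. Of 11 epithelial surface and protease genes 6 were tested, 4 above and 2 below 0, with a median of 0.07; the mucin Muc1 was at -0.57 (SE 0.21) and lower in GFP+ cells of 5 of 5 pairs. All 6 repressors of epithelial genes listed (Snai1, Snai2, Zeb1, Zeb2, Twist1, Twist2) were tested and abundant, summing to 513 to 798 CPM in GFP+ libraries, against 494 to 778 CPM in GFP- libraries, with 3 above and 3 below 0 and a median of -0.01.

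**Figure D4:**
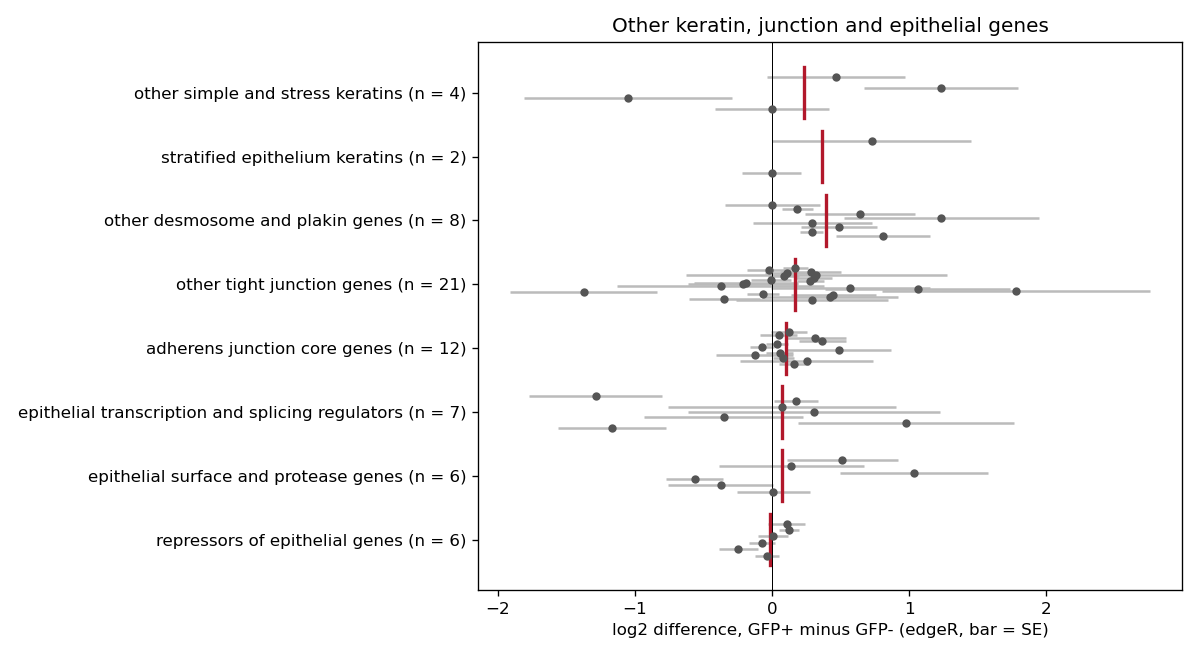
Log2 difference, GFP+ minus GFP-, with SE (edgeR), of the tested genes of 8 lists of keratin, junction and epithelial genes; the red line marks each list's median. Medians lie between -0.01 (repressors) and 0.39 (desmosome and plakin genes), and no gene passed an adjusted p of 0.05.

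Markers of other cell types were read beside these values. Of 10 epithelial markers 5 were tested, and their sum of 25.8 to 233 CPM in GFP+ and 5.34 to 263 CPM in GFP- cells came mostly from Krt8 and Krt18. Among the rest Krt19 and Cldn7 had 1 read each and Esrp1 2 reads in all libraries. The keratinocyte list summed to 4.10 to 9.89 CPM in GFP+ and 3.09 to 11.1 CPM in GFP- cells (4 of 8 tested), the muscle list to at most 1.22 and 5.32 CPM (2 of 6), the endothelial list to at most 4.94 and 5.78 CPM (5 of 7) and the leukocyte list to 8.69 to 16.8 and 7.71 to 21.5 CPM (3 of 8), in that order of populations. Of 7 mesothelial markers 3 were tested; Upk3b and Lrrn4 had 2 reads and 1 read in all, while mesothelin (Msln) reached 333 CPM in C GFP+ and 520 CPM in C GFP- cells. The perineurial list, which holds Cldn1 and Tjp1, summed to 330 to 631 CPM in GFP+ and 326 to 781 CPM in GFP- cells (6 of 7 tested). This sum came mostly from Tjp1, Slc2a1, Itgb4 and Ntn4. Of these, Itgb4 was uneven, from 1.46 CPM in E GFP- to 358 CPM in C GFP- cells, while Ntn4 had 26.7 to 119 CPM. In the same list Cldn1 had 1.84 to 20.3 CPM, Mpzl2 at most 1.15 CPM and Lypd2 0 reads. The part of these cell types in the members' levels was not tested.

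Markers of the Schwann lineage, from which MPNST is known to arise, were uneven across the same libraries. All 8 had a fitted log2 difference above 0, with a median of 1.52 and a sum of 4.20 to 321 CPM in GFP+ and 3.09 to 41.7 CPM in GFP- cells. Without model D 7 were tested, with a median of 1.22 and sums of 4.20 to 127 CPM in GFP+ libraries, against 3.09 to 36.7 CPM in GFP- libraries. edgeR called 0 of the 8 and DESeq2 2, where DESeq2 called 1.29% of all genes. Sox10 had 0.111, 17.1, 52.6, 112 and 0.434 CPM in GFP+ cells of models A to E, against 0.0514, 1.63, 7.65, 3.69 and 0 CPM in GFP- cells, so it was at or near 0 in A and E. Fibroblast markers summed to 7896 to 12975 CPM in GFP+ and 8678 to 15492 CPM in GFP- cells, mostly from Col1a1, Pdgfra and Dcn. Of these, Dcn ran from 68.6 CPM in B GFP- to 10149 CPM in C GFP+ cells. Lum had only 0.905 to 60.5 CPM and Pi16 1.59 to 27.0 CPM. The fitted difference was above 0 for 1 of 6 and below 0 for 5, and 1 of the 6 was called by DESeq2 and 0 by edgeR.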

How the data were processed

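Sorted GFP+ and GFP- tumour cells of 5 models were sequenced, 1 library each. The deposited tables hold unnormalized read counts, which the authors made with STAR 2.4.2.8 on mm10, per the submitters' processing notes; the annotation, library kit and strandedness were not given in the sources at hand. The count of the second strand setting was used (96.9% to 97.1% of stranded gene reads). Multiply mapped reads (5.99% to 9.74%) and the other summary lines (21.3% to 24.3% in all) were left out. Symbols, coordinates and exon lengths came from GENCODE vM21 (46005 identifiers matched, 512 did not), promoter sequences from RefSeq on GRCm38.p6.

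edgeR 4.0.16 (R 4.3.3) was used with TMM scaling, the filterByExpr filter and the model as a block; its quasi-likelihood test was two-sided, with Benjamini-Hochberg adjustment over 15282 genes at 0.05. Models were compared in the same fit. Pair differences used log2 CPM with a prior count of 2. Alternatives were DESeq2 1.42.0, limma 3.58.1 with voom, other scalings, filters and strand settings, no model term and leaving out each model. No libraries were identical. The letters pair libraries of the same tumour model; deviations from population means correlated at 0.622 to 0.854 within pairs.

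The members and the gene lists were chosen with earlier results of these data known. Named genes were all members, the 3 genes nearest to each by correlation, and of each list at most the 4 with the smallest p and the 4 with the highest level per length; genes named as nearly absent were added after their values were seen. A few genes that this rule names are not reported here.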

Additional observations from a re-analysis of the deposited data

Results flagged for a closer look

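In 27 sets of 5 values (the GFP+ levels, the GFP- levels and the pair differences of 9 members) a single value lay far from the others in 4. Chance flags about 1 in 20 groups where values are normally spread. All 4 flags were in CPM levels, which are not on a log scale, so that rate cannot be set against them. Krt18 in A GFP- cells had 93.8 CPM, with the other GFP- libraries at 3.53 to 28.6 CPM. Dsp in B GFP+ cells had 29.4 CPM, with the other GFP+ libraries at 1.83 to 5.54 CPM. Pkp2 in D GFP+ cells had 12.6 CPM, with the others at 1.09 to 3.83 CPM. Cldn1 in the same library had 20.3 CPM, with the others at 2.61 to 3.26 CPM. Reads of the opposite strand, which no comparison used, passed 3 in a library for 3 members: Krt8 had up to 12 (C GFP+), and Jup (B GFP-) and Tjp1 (D GFP-) up to 4 each. For Krt8 they came to 41 reads in all libraries, 0.255% of its stranded reads.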

How the results depend on the processing

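Between GFP+ and GFP- cells 0 members were called under all 13 alternatives, of which 3 left Krt7 untested. Over all genes the count was 0, but 47 with no filter on low counts and 197 with DESeq2. The cause was not tested. The count of genes called between models was 8215, and 4353 to 7975 in the fits that left out 1 model, lowest without C. Without the model block the count of calls stayed at 0 and the log2 difference turned to -0.25 for Krt8 and 0.088 for Epcam. With voom it turned to -0.33 for Krt8, 0.038 for Epcam and -0.0015 for Tjp1, which also stood at -0.013 with no filter and at -0.0020 with unstranded counts. Leaving out 1 model gave -0.40 to 0.85 for Krt8, -0.25 to 0.15 for Epcam, -0.058 to 0.59 for Pkp2, -0.34 to 0.60 for Cldn1 and -0.038 to 0.031 for Tjp1. For Krt18 it gave 0.47 without B and 1.54 without A. The other 99 log2 differences kept their sign and side of the threshold. Cldn1 passed the threshold between models under 5 alternatives (0.00124 with DESeq2). Depth limits values on 20 reads or fewer: all of Krt7 and Krt19, Krt8 in B GFP-, Dsp in A GFP-, Epcam in A and E GFP+ and Pkp2 in C GFP+ cells.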

Other observations

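Values of 2 other genes, picked after they were seen from the mesothelial and perineurial marker lists, follow without a test. Mesothelin (Msln), a surface glycoprotein, had 13.4, 28.3, 333, 108 and 88.2 CPM in GFP+ cells of models A to E, against 78.0, 13.0, 520, 47.3 and 36.3 CPM in GFP- cells. Its direction was that of Krt8 in each pair, lower in GFP+ cells of A and C and higher in those of B, D and E. The integrin gene Itgb4, whose product anchors hemidesmosomes, had 18.3, 27.2, 201, 22.8 and 3.04 CPM in GFP+ cells, against 6.73, 93.2, 358, 42.7 and 1.46 CPM in GFP- cells, highest in model C in both populations.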
